A study of Rattus norvegicus with 12 samples.

Results

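Genes of the rat major histocompatibility complex (MHC) and genes of the interferon response were followed across 4 groups of bone samples. They were chosen by symbol, among probe sets that the platform annotation pairs with a single gene: every symbol that begins with RT1-, the families Irf, Ifit, Ifitm, Ifi, Oas, Mx and Gbp, the genes Psmb8, Psmb9, Stat2, Isg15, Usp18 and Rsad2, and Tap1, Tap2, B2m, Cd74 and Ciita. This gave 79 probe sets of 57 genes, out of 20826 probe sets of 14217 genes with 1 symbol. By their known roles 41 probe sets of 25 genes were placed with the MHC and 38 probe sets of 32 genes with the interferon response. No filter on low values was used, so all 79 were among the 31042 probe sets tested.

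RNA came from the right tibia of female Sprague-Dawley rats, an outbred stock, after the marrow had been aspirated. The 4 groups were a casein diet (CAS), the same diet with 17β-estradiol from a subcutaneous pump at 10 µg/kg/d (E2), a diet with soy protein isolate in place of casein (SPI), and the SPI diet with the same E2 pump (SPI+E2). The labels give treatment from postnatal day 21 to day 34, and the study's methods begin the 14 days of feeding on day 20. Each group had 3 arrays, 12 in all, and each array held pooled RNA of 2 to 3 rats, so p-values measure the spread between pools. The rats were intact and carried no transgene that the labels name, and the tissue held whatever blood and marrow cells the aspiration left. In bulk RNA of this kind fewer cells of a type and less RNA per cell cannot be told apart.

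The MHC is the gene cluster through which cells show peptides to T lymphocytes, and in the rat its genes are named RT1. Class I molecules pair a heavy chain with beta-2-microglobulin and carry peptides from the cytosol, which the immunoproteasome cuts and the TAP transporter brings into the endoplasmic reticulum. Class II molecules are made mainly by B cells, macrophages and dendritic cells, where the transactivator Ciita turns on their genes together with that of the invariant chain Cd74. Interferons act through STAT and IRF transcription factors on a DNA motif called the interferon-stimulated response element (ISRE), and so induce antiviral genes and much of the class I pathway. Class I genes of the RT1 region are near-identical copies and differ between rats, and a short probe can bind several of them, so the gene name of a class I probe set is uncertain.

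Promoters of 4 genes are shown because the largest differences described below lie in them or because they carry the motif that joins both groups. Each window runs from 250 bases before to 50 bases after the start of the gene in RefSeq on the build GRCr8, is written 5′ to 3′ along the gene, and has matches to the ISRE core (GAAANNGAAA) or to CCAAT, the letters bound by the factor NF-Y, in capitals on either strand. RT1-S3, a class I gene, lies at chr20:2675278-2675577 on the plus strand. RT1-Bb, a class II beta chain, lies at chr20:4604069-4604368 on the minus strand, and Tap1, a TAP subunit, at chr20:4668494-4668793 on the minus strand. Rsad2, the antiviral enzyme viperin, lies at chr6:48788071-48788370 on the minus strand.
RT1-S3: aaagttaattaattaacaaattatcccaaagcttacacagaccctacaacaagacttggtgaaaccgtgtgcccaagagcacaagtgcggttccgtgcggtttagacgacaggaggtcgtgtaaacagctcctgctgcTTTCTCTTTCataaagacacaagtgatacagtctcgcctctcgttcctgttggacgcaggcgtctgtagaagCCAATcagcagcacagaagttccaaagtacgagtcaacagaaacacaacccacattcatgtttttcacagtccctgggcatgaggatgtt
RT1-Bb: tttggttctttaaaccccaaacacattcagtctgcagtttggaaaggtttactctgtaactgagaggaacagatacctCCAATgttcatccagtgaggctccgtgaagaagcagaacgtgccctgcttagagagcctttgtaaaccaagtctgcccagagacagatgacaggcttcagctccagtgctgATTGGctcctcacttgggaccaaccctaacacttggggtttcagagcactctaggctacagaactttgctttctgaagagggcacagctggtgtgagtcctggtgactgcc
Tap1: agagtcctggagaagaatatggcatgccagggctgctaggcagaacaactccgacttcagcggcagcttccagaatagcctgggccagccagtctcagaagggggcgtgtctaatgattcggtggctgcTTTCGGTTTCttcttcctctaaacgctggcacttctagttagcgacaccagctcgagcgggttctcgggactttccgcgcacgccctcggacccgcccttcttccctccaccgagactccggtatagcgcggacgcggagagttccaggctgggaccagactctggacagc
Rsad2: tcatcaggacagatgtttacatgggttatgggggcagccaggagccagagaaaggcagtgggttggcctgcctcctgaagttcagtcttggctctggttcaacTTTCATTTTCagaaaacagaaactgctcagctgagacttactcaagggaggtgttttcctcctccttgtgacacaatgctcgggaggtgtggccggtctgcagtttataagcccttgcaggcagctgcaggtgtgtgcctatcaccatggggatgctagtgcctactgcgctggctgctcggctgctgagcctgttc

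The ISRE core began 112 bases before the start of RT1-S3, 121 before that of Tap1 and 147 before that of Rsad2, each time on the reverse strand. In RT1-Bb no ISRE core was found in these letters, and CCAAT began 172 bases before the start with a reverse copy at 61. In RT1-S3 a CCAAT began at 40. Of the 57 genes, 46 had a window. The ISRE core was in 6 of 22 MHC genes and 13 of 24 interferon genes, against 3.92% of 33469 windows of this length. The core of the STAT site (TTCNNNGAA), which reads the same on both strands, was in 2 and 8 of them against 8.87%, and CCAAT was in 18 and 11 of them against 37.5%. None of these motifs can lie wholly within another, though their ends can overlap. Tap1 and Psmb9 are read head to head and their windows share 44 bases, so they are not independent. A match describes the letters alone. Of the MHC genes with a window 12 passed the test described next against CAS, 3 of them among the 6 with the ISRE core. Of the interferon genes 8 of 24 did, 3 of them among the 13.

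The deposited values are log2 values centred for each probe set on its median over the 12 arrays, so a value says how an array stands to the others and gives no level, and genes cannot be ranked by level. Whether the tissue expresses the markers of bone could for the same reason not be read. Over the 79 probe sets the median SD between the pools of a group, in log2 units, was 0.0702, 0.0752, 0.0591 and 0.0778 in CAS, SPI, E2 and SPI+E2 respectively. All rats were labelled female, yet Eif2s3y, which the gene table places on chromosome Y, read -2.20 to -1.82 in CAS and -0.37 to 0.86 in the other 9 arrays. Xist, the RNA of the silent X chromosome, read 0.090 to 0.35 over its 4 probe sets in CAS and -0.16 to 0.075 in the others. Of the 2 probe sets of the Y gene Uty, 1 was highest in CAS and 1 overlapped between groups. CAS thus stood apart from all 3 other groups in these genes too, and their part in the results was not tested.

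A limma model was fitted across all probe sets, and differences whose p stayed under 0.05 after Benjamini-Hochberg adjustment are termed called. With SPI 5 MHC probe sets were higher than CAS and 7 lower, where 8.25% of all probe sets were higher and 9.07% lower. With E2 2 were higher and 9 lower (4.99% and 4.36% of all probe sets), and with SPI+E2 9 were higher and 6 lower (4.14% and 4.33%). Together these were 29.3%, 26.8% and 36.6% of the 41 MHC probe sets. Among the 38 interferon probe sets 5 were called with SPI, all higher, 2 were higher and 4 lower with E2, and 2 were higher and 1 lower with SPI+E2, which made 13.2%, 15.8% and 7.89%. The MHC shares were thus above those of all probe sets in each comparison, and the interferon shares were below them with SPI and SPI+E2. With a mean per gene instead, 7 of 25 MHC genes and 8 of 32 interferon genes were called with SPI. The contrast of the classes with SPI thus depends on counting probe sets. The share of all genes called in the fit per gene is not given here. No test set the MHC against the interferon genes.

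The differences were small. The median log2 difference of the MHC probe sets was -0.021, -0.068 and 0.052 for SPI, E2 and SPI+E2, and of the interferon probe sets -0.019, -0.083 and -0.035, beside 0.0059, -0.0067 and 0.019 over all probe sets. A 1.5-fold difference among those called was reached by 2 MHC probe sets and by none of the interferon ones. Of the MHC probe sets 22 were called in none of the 3 comparisons with CAS and 7 in all 3, 5 of these lower and 2 higher each time. Of the interferon probe sets 28 were called in none, and no probe set was called in all 3. All 3 comparisons use the same 3 CAS arrays. The interferon count fell to 2 with SPI without CAS pool 2 or 3 and to 3 without E2 pool 2 or SPI+E2 pool 1, and with E2 to 3 without CAS pool 1. With SPI+E2 it fell to 0 without CAS pool 1 and to 1 without CAS pool 2, CAS pool 3 or SPI+E2 pool 1.

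**Figure D1:**
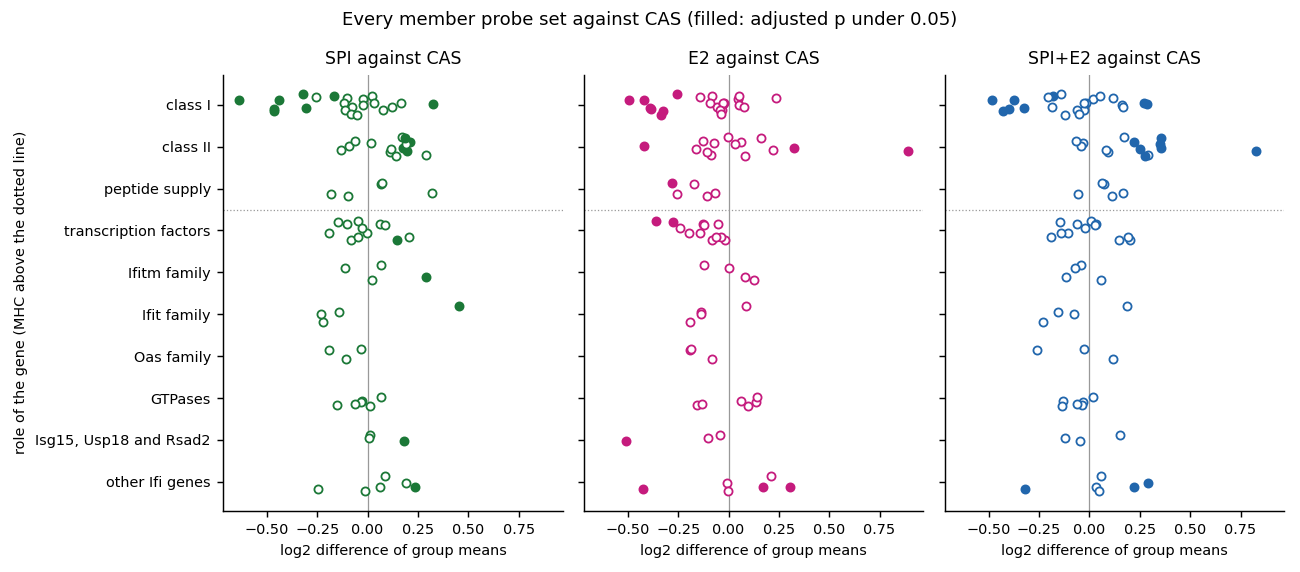
Log2 difference of group means against CAS (x axis) for each of the 79 probe sets, by role of the gene (y axis), in 3 panels for SPI, E2 and SPI+E2; each point is 1 probe set, filled where the adjusted p was under 0.05, and points are spread vertically only to part them. Class I calls lie mostly left of 0 in all panels, class II calls mostly right of it, and no GTPase or Oas probe set is filled.

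The class I probe sets that were called were mostly lower than CAS. Of 22 class I probe sets of 13 genes, 1 was higher and 7 lower with SPI, 7 were lower with E2, and 2 were higher and 6 lower with SPI+E2. Their shares called were 36.4%, 31.8% and 36.4%, beside 17.3%, 9.35% and 8.48% of all probe sets. RT1-S3 led the class I genes, with all 4 of its probe sets lower in all 3 comparisons. Its probe set 1388213_a_at read 0.46, 0.46 and 0.47 in the CAS pools, -0.12, -0.23 and -0.17 in the SPI pools, -0.11, 0.012 and 0.0017 in the E2 pools and -0.055, -0.00034 and 0.00034 in the SPI+E2 pools. The 3 CAS arrays stood above all 9 others. It was lower by 0.64 with SPI, 1.56-fold (SE 0.0496, adjusted p = 5.32e-06), by 0.49 with E2 (SE 0.0496, adjusted p = 5.21e-05) and by 0.48 with SPI+E2 (SE 0.0496, adjusted p = 0.000177).

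The other 3 probe sets of RT1-S3 also had CAS highest. In 1371123_x_at the arrays read 0.39, 0.48 and 0.27 in the CAS pools, 0.014, -0.074 and -0.13 in the SPI pools, -0.087, -0.022 and -0.014 in the E2 pools and 0.029, 0.033 and -0.052 in the SPI+E2 pools. In 1388212_a_at they read 0.50, 0.35 and 0.31 in the CAS pools, -0.14, -0.026 and -0.069 in the SPI pools, -0.0040, -0.12 and 0.12 in the E2 pools and -0.11, 0.061 and 0.0040 in the SPI+E2 pools, and in 1388164_at 0.21, 0.30 and 0.41 in the CAS pools, -0.031, -0.035 and 0.078 in the SPI pools, -0.055, -0.14 and -0.052 in the E2 pools and -0.13, 0.031 and 0.054 in the SPI+E2 pools. In each of them every CAS array was above every other array. Their log2 differences from CAS ran from -0.47 to -0.30 with SPI, from -0.42 to -0.39 with E2 and from -0.40 to -0.33 with SPI+E2, with adjusted p-values of 0.000472 to 0.0133. Of the 4 names 3 carry the suffix _a or _x, by which the maker marks probe sets that bind several transcripts or share probes, and 15 of the 41 MHC probe sets carry such a suffix, against 2 of the 38 interferon ones. The RT1 haplotypes of the pooled rats are not given in the sources used here, and their part in these differences was not tested. The call of 1388164_at with SPI+E2 was lost without CAS pool 3 or SPI+E2 pool 1 (adjusted p = 0.0503 to 0.061).

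RT1-A, the classical class I gene, behaved likewise. It read 0.37, 0.31 and 0.36 in the CAS pools, -0.16, -0.15 and -0.034 in the SPI pools, -0.064, 0.093 and 0.033 in the E2 pools and -0.29, -0.033 and 0.085 in the SPI+E2 pools, with CAS above all others. It was lower by 0.46 with SPI (SE 0.0848, adjusted p = 0.00289), 0.33 with E2 (SE 0.0848, adjusted p = 0.0311) and 0.43 with SPI+E2 (SE 0.0848, adjusted p = 0.00973). RT1-T24-3, a class I gene close to RT1-S3 in the gene table of chromosome 20, read 0.24, 0.30 and 0.085 in the CAS pools, -0.11, -0.020 and -0.19 in the SPI pools, -0.039, -0.077 and -0.020 in the E2 pools and 0.053, 0.13 and 0.020 in the SPI+E2 pools. It was lower with SPI by 0.32 (SE 0.0659, adjusted p = 0.00609) and with E2 by 0.26 (SE 0.0659, adjusted p = 0.0296), while the difference with SPI+E2 was -0.14 (adjusted p = 0.219). The E2 calls were lost without any CAS pool or E2 pools 1 or 3 (adjusted p = 0.0678 to 0.124) for RT1-A, and without CAS pools 1 or 2 or any E2 pool (adjusted p = 0.067 to 0.125) for RT1-T24-3.

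RT1-T24-4, the gene next to RT1-S3, was called with E2 alone. It is named after its values were seen, as are RT1-CE10, RT1-Da and RT1-DMb. The arrays of RT1-T24-4 read 0.096, 0.089 and 0.057 in the CAS pools, 0.014, 0.033 and 0.036 in the SPI pools, -0.19, -0.27 and -0.29 in the E2 pools and -0.019, -0.097 and -0.014 in the SPI+E2 pools. The 3 E2 arrays were below all others, and the difference from CAS was -0.33 (SE 0.0466, adjusted p = 0.000604). RT1-CE12, another class I gene, went the opposite way to RT1-S3 with the soy diet. It read -0.23, -0.076 and -0.27 in the CAS pools, 0.21, 0.11 and 0.077 in the SPI pools, -0.22, -0.21 and -0.23 in the E2 pools and 0.092, 0.11 and 0.076 in the SPI+E2 pools. Both SPI groups were above CAS and E2 in every array, by 0.32 with SPI (SE 0.0574, adjusted p = 0.00242) and 0.29 with SPI+E2 (SE 0.0574, adjusted p = 0.0104), and the E2 difference was -0.026 (adjusted p = 0.879). RT1-CE10 was called with SPI+E2 alone, at 0.27 (SE 0.0618, adjusted p = 0.0201). With SPI+E2 the calls were lost without CAS pool 3 (adjusted p = 0.0515) for RT1-CE12 and without CAS pools 1 or 2 or SPI+E2 pool 1 (adjusted p = 0.0619 to 0.0767) for RT1-CE10.

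B2m encodes beta-2-microglobulin, the partner of every class I heavy chain. Its probe set 1367595_s_at read 0.11, 0.11 and 0.15 in the CAS pools, -0.059, -0.043 and -0.027 in the SPI pools, 0.038, 0.052 and 0.027 in the E2 pools and -0.081, -0.051 and -0.037 in the SPI+E2 pools. CAS was above all others, by 0.17 over SPI (SE 0.0414, adjusted p = 0.0166) and 0.18 over SPI+E2 (SE 0.0414, adjusted p = 0.0203), with an E2 difference of -0.084 (adjusted p = 0.288). The other probe set, 1371440_at, had overlapping groups and differences of -0.021, 0.046 and 0.019 for SPI, E2 and SPI+E2. The mean of both was not called. The remaining class I probe sets, of RT1-A3, RT1-CE5, RT1-CE16, RT1-M3-1, RT1-N2 and RT1-N3, had differences from CAS between -0.25 and 0.24 and none was called, although RT1-N3 is the other direct neighbour of RT1-S3. The calls of 1367595_s_at were lost without CAS pool 3 (adjusted p = 0.0689) with SPI and without any CAS pool or SPI+E2 pools 1 or 2 (adjusted p = 0.0506 to 0.0829) with SPI+E2.

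**Figure D2:**
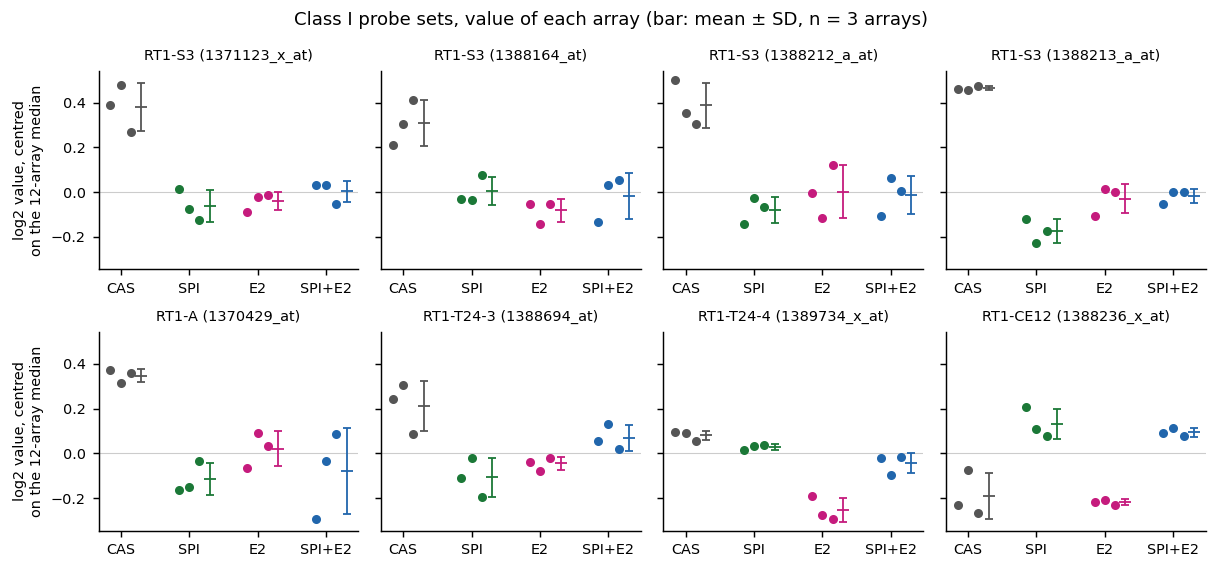
Centred log2 value (y axis) of each array for 8 class I probe sets in CAS, SPI, E2 and SPI+E2; points are arrays and bars the mean ± SD of 3 arrays. In the 4 RT1-S3 panels and in RT1-A the CAS arrays stand above all others, RT1-T24-4 is lowest in E2, and RT1-CE12 is high in SPI and SPI+E2.

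The class II probe sets that were called were mostly higher than CAS, and most of them with SPI+E2. Of 14 class II probe sets of 8 genes, 4 were higher with SPI and the others were not called, 2 were higher and 1 lower with E2, and 7 were higher with SPI+E2. Their shares called were 28.6%, 21.4% and 50%, beside 17.3%, 9.35% and 8.48% of all probe sets. Their median log2 difference was 0.16, 0.015 and 0.23 for SPI, E2 and SPI+E2. RT1-Bb, the beta chain of the class II molecule RT1-B, had the largest difference of all 79 probe sets. Its probe set 1371033_at read -0.45, -0.61 and -0.47 in the CAS pools, -0.34, -0.27 and -0.33 in the SPI pools, 0.42, 0.36 and 0.36 in the E2 pools and 0.40, 0.27 and 0.28 in the SPI+E2 pools. The 4 groups did not overlap except for E2 and SPI+E2. It was higher by 0.89 with E2 (SE 0.0572, adjusted p = 1.99e-06), by 0.83 with SPI+E2, 1.78-fold (SE 0.0572, adjusted p = 1.17e-05), and by 0.20 with SPI (SE 0.0572, adjusted p = 0.0349).

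The second probe set of RT1-Bb did not follow with E2. It, 1371065_at, read -0.052, -0.046 and -0.10 in the CAS pools, -0.10, 0.23 and 0.25 in the SPI pools, -0.038, 0.038 and -0.11 in the E2 pools and 0.33, 0.22 and 0.30 in the SPI+E2 pools. With E2 it overlapped CAS, at 0.032 (adjusted p = 0.903), and with SPI+E2 it was higher by 0.35 (SE 0.0839, adjusted p = 0.0244). RT1-Ba, the alpha chain of the same molecule, was called in opposite directions with E2 by its probe sets. The first, 1370822_at, read -0.26, -0.21 and -0.30 in the CAS pools, -0.16, -0.021 and -0.058 in the SPI pools, 0.071, 0.021 and 0.11 in the E2 pools and 0.13, 0.12 and 0.045 in the SPI+E2 pools, and was higher by 0.32 with E2 (SE 0.0536, adjusted p = 0.00197) and 0.35 with SPI+E2 (SE 0.0536, adjusted p = 0.002), and by 0.18 with SPI (adjusted p = 0.0426). The second, 1377334_at, read 0.040, 0.096 and 0.077 in the CAS pools, -0.016, -0.016 and -0.029 in the SPI pools, -0.19, -0.39 and -0.47 in the E2 pools and 0.016, 0.045 and 0.019 in the SPI+E2 pools, and was lower by 0.42 with E2 (SE 0.0634, adjusted p = 0.00106). It alone made the class II call lower than CAS. The other 2 probe sets of RT1-Ba overlapped CAS in each group, with differences of 0.11, -0.11 and 0.092 in 1381593_x_at and 0.17, -0.0025 and 0.17 in 1392334_at, and the mean of all 4 differed by -0.051 with E2 and was not called. No direction of RT1-Ba with E2 can be given from these values.

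The calls against CAS were lost for 1371033_at with SPI without CAS pools 2 or 3 or any SPI pool (adjusted p = 0.056 to 0.127), for 1371065_at with SPI+E2 without any CAS pool or SPI+E2 pools 1 or 3 (adjusted p = 0.06 to 0.0856), and for 1370822_at with SPI without any CAS pool, SPI pools 2 or 3, any E2 pool or SPI+E2 pools 1 or 2 (adjusted p = 0.0516 to 0.143).

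Among the other class II chains RT1-Da, RT1-DMb and 1 of the 2 probe sets of RT1-Db1 were highest in SPI+E2. RT1-Da, the alpha chain of the molecule RT1-D, read -0.14, -0.14 and -0.18 in the CAS pools, 0.16, -0.041 and -0.024 in the SPI pools, -0.011, 0.017 and 0.011 in the E2 pools and 0.21, 0.23 and 0.16 in the SPI+E2 pools. All SPI+E2 arrays were above all others, 0.35 over CAS (SE 0.0566, adjusted p = 0.00286), and SPI was higher than CAS by 0.19 (SE 0.0566, adjusted p = 0.0423). RT1-Db1, its beta chain, had the probe set 1370383_s_at at -0.14, -0.066 and -0.14 in the CAS pools, 0.052, 0.061 and -0.028 in the SPI pools, 0.028, -0.083 and -0.038 in the E2 pools and 0.15, 0.16 and 0.17 in the SPI+E2 pools. It was higher by 0.28 with SPI+E2 (SE 0.0488, adjusted p = 0.00507). Its other probe set, 1370382_at, was instead highest in E2, at 0.16, 0.17 and 0.21, with a difference of 0.22 from CAS that was not called (adjusted p = 0.0788). RT1-DMb, a chain of the chaperone that loads peptides onto class II, read -0.083, -0.0059 and -0.078 in the CAS pools, 0.16, 0.016 and 0.0059 in the SPI pools, -0.16, -0.27 and -0.22 in the E2 pools and 0.22, 0.20 and 0.16 in the SPI+E2 pools. It was lowest in E2 and highest in SPI+E2, which was 0.25 above CAS (SE 0.0548, adjusted p = 0.0164). Its partner RT1-DMa was not called and its groups overlapped. The calls were lost for RT1-Da with SPI without any CAS pool, SPI pool 1, any E2 pool or SPI+E2 pools 1 or 2 (adjusted p = 0.0521 to 0.129), and for RT1-DMb with SPI+E2 without CAS pools 1 or 3 or SPI+E2 pools 1 or 2 (adjusted p = 0.0517 to 0.0662).

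Cd74, the invariant chain that escorts class II, read -0.17, -0.15 and -0.028 in the CAS pools, 0.10, 0.11 and 0.083 in the SPI pools, -0.054, -0.084 and -0.029 in the E2 pools and 0.028, 0.14 and 0.14 in the SPI+E2 pools. All SPI arrays were above all CAS arrays, by 0.21 (SE 0.0529, adjusted p = 0.0163), and SPI+E2 was higher by 0.22 (SE 0.0529, adjusted p = 0.0248), while E2 overlapped CAS (0.060, adjusted p = 0.616). Ciita, the switch of class II transcription, was not called against CAS. Its probe set 1379381_at read -0.12, -0.032 and -0.11 in the CAS pools, 0.032, 0.41 and 0.17 in the SPI pools, -0.043, -0.25 and -0.23 in the E2 pools and 0.33, 0.22 and 0.064 in the SPI+E2 pools, with SPI and SPI+E2 above CAS in every array by 0.29 and 0.29 (adjusted p = 0.0612 and 0.0922). The other, 1369214_a_at, overlapped in all groups. The Cd74 calls were lost without CAS pools 1 or 2 (adjusted p = 0.0598 to 0.0724) with SPI and without CAS pools 1 or 2 or SPI+E2 pools 2 or 3 (adjusted p = 0.0716 to 0.102) with SPI+E2.

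**Figure D3:**
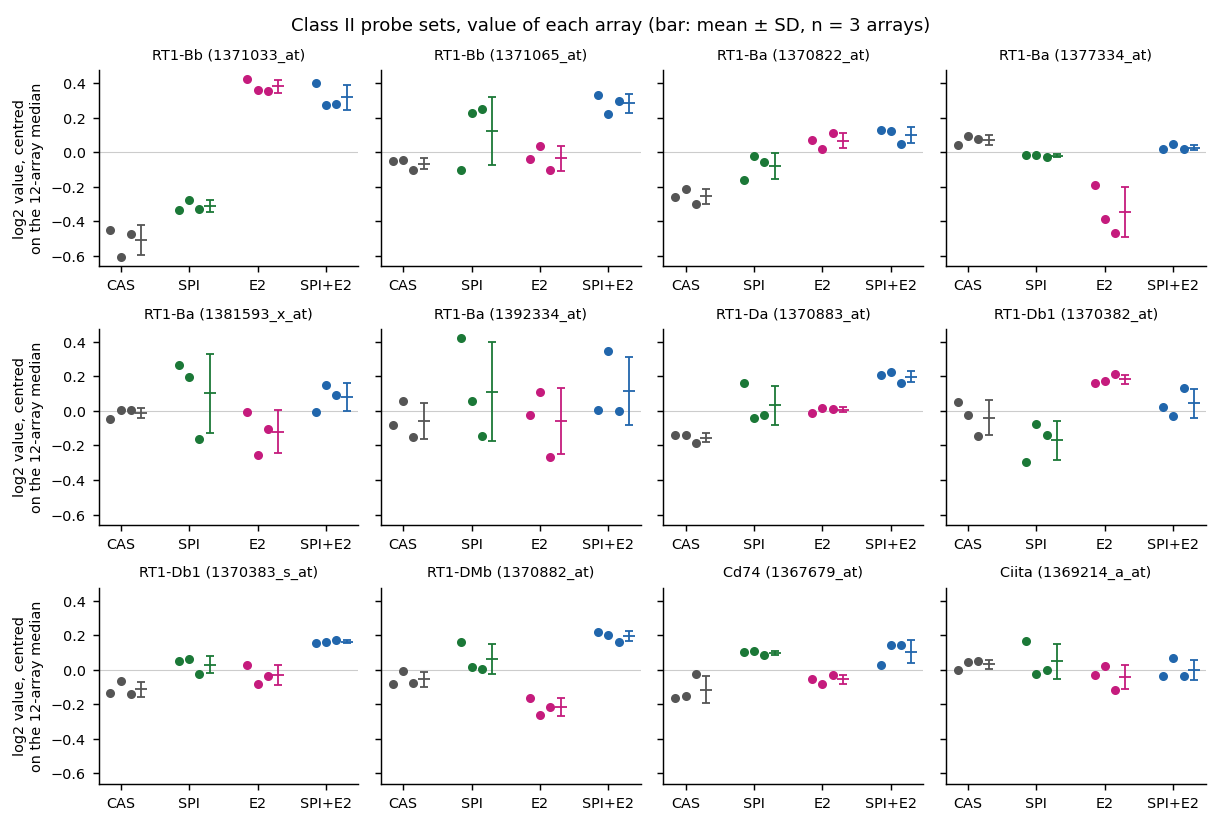
Centred log2 value (y axis) of each array for 12 class II probe sets in CAS, SPI, E2 and SPI+E2; points are arrays and bars the mean ± SD of 3 arrays. Probe sets of the same gene differ: 1371033_at of RT1-Bb is high in E2 and SPI+E2 where 1371065_at is high in SPI+E2, and 1370822_at and 1377334_at of RT1-Ba move in opposite directions with E2. The probe set 1379381_at of Ciita and that of RT1-DMa are not drawn.

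Genes that supply peptides to class I lie side by side within the class II region, and were lowest in E2 where they differed. Of 5 probe sets of 4 genes the limma fit called 1 against CAS, Tap1 with E2 (20%, beside 9.35% of all probe sets). At an unadjusted p under 0.05 there were 1 higher with SPI, 3 lower with E2 and none with SPI+E2. Of all 31042 probe sets 4482 were then higher with SPI and 3155 lower with E2. The Tap1 probe set 1388149_at read -0.032, -0.012 and 0.098 in the CAS pools, 0.11, 0.15 and 0.012 in the SPI pools, -0.28, -0.25 and -0.25 in the E2 pools and -0.054, 0.15 and 0.15 in the SPI+E2 pools. All E2 arrays were below all others, 0.28 below CAS (SE 0.0656, adjusted p = 0.018), and the call was lost without CAS pool 3 or E2 pools 1 or 3 (adjusted p = 0.0534 to 0.0835). The other Tap1 probe set, 1375379_at, spread from -0.013 to 0.61 within SPI and differed by -0.068 with E2 (adjusted p = 0.862). Psmb8, a catalytic subunit of the immunoproteasome, read -0.033, -0.029 and 0.016 in the CAS pools, 0.066, 0.11 and -0.016 in the SPI pools, -0.25, -0.089 and -0.22 in the E2 pools and 0.028, 0.098 and 0.039 in the SPI+E2 pools. Its E2 arrays were the lowest, at -0.17 from CAS (adjusted p = 0.0833). Psmb9, another catalytic subunit, had an E2 difference of -0.26 (adjusted p = 0.1), and Tap2, the other TAP subunit, of -0.11 (adjusted p = 0.502).

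Transcription factors of the interferon response had 12 probe sets of 8 genes. With SPI 1 was higher and with E2 2 were lower. These were 8.33% and 16.7% of them, beside 17.3% and 9.35% of all probe sets, so the SPI share was below that of all. None was called with SPI+E2, where 1 was higher and 2 lower at an unadjusted p under 0.05. Of all 31042 probe sets 3831 were then higher with SPI+E2 and 3453 lower. Irf8, a factor of macrophages, dendritic cells and B cells, read 0.10, -0.0016 and -0.023 in the CAS pools, -0.21, 0.15 and 0.0016 in the SPI pools, -0.29, -0.37 and -0.35 in the E2 pools and 0.054, 0.045 and 0.0035 in the SPI+E2 pools. All E2 arrays were below all others, by 0.36 from CAS (SE 0.0791, adjusted p = 0.012), a call that was lost without CAS pool 1 (adjusted p = 0.058). Irf9, the DNA-binding part of the complex that carries the type I interferon signal to the ISRE, read 0.11, 0.088 and 0.11 in the CAS pools, 0.021, -0.19 and 0.033 in the SPI pools, -0.12, -0.20 and -0.20 in the E2 pools and -0.14, -0.021 and 0.026 in the SPI+E2 pools in 1383448_at. It was lower with E2 by 0.27 (SE 0.0663, adjusted p = 0.0211), and its other probe set differed by -0.24 (adjusted p = 0.0612). Irf3, a factor that starts interferon production, was higher with SPI by 0.15 (SE 0.0459, adjusted p = 0.046). The calls were lost without any CAS pool or E2 pools 2 or 3 (adjusted p = 0.0583 to 0.0773) for Irf9 and without any CAS pool, SPI pools 2 or 3, any E2 pool or any SPI+E2 pool (adjusted p = 0.0556 to 0.136) for Irf3.

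Irf1, which interferon gamma induces, differed from CAS by -0.10, -0.13 and -0.064 with SPI, E2 and SPI+E2, and none of these was called. Irf7, the factor that amplifies type I interferon, differed by -0.046, -0.061 and -0.19, with the lowest adjusted p = 0.0964 in SPI+E2. The 2 probe sets of Stat2 differed by -0.052 and -0.12 with E2 and were not called against CAS. Irf2, a brake on interferon genes, and Irf5 were also not called.

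Rsad2 had the largest difference among the interferon probe sets. It read 0.046, -0.0042 and 0.013 in the CAS pools, 0.21, 0.21 and 0.18 in the SPI pools, -0.46, -0.54 and -0.48 in the E2 pools and -0.062, -0.031 and 0.0042 in the SPI+E2 pools. The SPI arrays were above, and the E2 arrays below, all arrays of the other groups, while SPI+E2 overlapped CAS. It was lower by 0.51 with E2 (SE 0.0448, adjusted p = 1.73e-05) and higher by 0.18 with SPI (SE 0.0448, adjusted p = 0.0152). Ifi44l, an interferon-induced gene of uncertain function, read 0.36, 0.26 and 0.27 in the CAS pools, -0.093, 0.044 and 0.20 in the SPI pools, -0.044, -0.15 and -0.20 in the E2 pools and -0.12, -0.048 and 0.090 in the SPI+E2 pools. CAS was above all others, by 0.43 over E2 (SE 0.0796, adjusted p = 0.00451) and 0.32 over SPI+E2 (SE 0.0796, adjusted p = 0.0283). Ifit1, whose protein binds foreign RNA, read -0.13, -0.048 and -0.14 in the CAS pools, 0.36, 0.37 and 0.32 in the SPI pools, -0.047, 0.047 and -0.052 in the E2 pools and 0.14, 0.28 and -0.18 in the SPI+E2 pools. It was higher with SPI by 0.45 (SE 0.094, adjusted p = 0.00618), while the SPI+E2 arrays spread around those of CAS. The calls were lost for Rsad2 with SPI without CAS pools 2 or 3 (adjusted p = 0.0512 to 0.0542), and for Ifi44l with SPI+E2 without any CAS pool or SPI+E2 pools 1 or 2 (adjusted p = 0.0609 to 0.108).

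Ifi27, a small interferon-induced membrane protein, read -0.14, -0.11 and -0.16 in the CAS pools, -0.015, -0.071 and -0.14 in the SPI pools, 0.065, 0.015 and 0.032 in the E2 pools and 0.12, 0.097 and 0.041 in the SPI+E2 pools. It was higher by 0.17 with E2 (SE 0.0483, adjusted p = 0.0442) and 0.22 with SPI+E2 (SE 0.0483, adjusted p = 0.0154). Its relative Ifi27l2b read -0.060, -0.21 and -0.11 in the CAS pools, 0.15, 0.12 and 0.057 in the SPI pools, 0.15, 0.16 and 0.23 in the E2 pools and -0.14, -0.057 and -0.076 in the SPI+E2 pools. It was higher with SPI by 0.23 (SE 0.0539, adjusted p = 0.0113) and with E2 by 0.30 (SE 0.0539, adjusted p = 0.00319), and with SPI+E2 it overlapped CAS. Ifi30, a lysosomal reductase that prepares antigens for class II, read -0.052, -0.094 and -0.021 in the CAS pools, 0.28, 0.013 and 0.12 in the SPI pools, -0.075, -0.11 and -0.013 in the E2 pools and 0.22, 0.24 and 0.25 in the SPI+E2 pools. It was 0.29 higher with SPI+E2 (SE 0.0634, adjusted p = 0.0154), the group in which 7 class II probe sets were higher too. Ifitm10 was higher with SPI by 0.29 (SE 0.0862, adjusted p = 0.0375). The calls were lost for Ifi27 without any CAS pool, SPI pool 2, any E2 pool or SPI+E2 pools 1 or 2 (adjusted p = 0.056 to 0.15) with E2 and without CAS pools 1 or 3 or SPI+E2 pools 1 or 2 (adjusted p = 0.0512 to 0.0654) with SPI+E2, for Ifi30 without CAS pools 1 or 2 (adjusted p = 0.0523 to 0.0585), and for Ifitm10 without CAS pools 2 or 3, SPI pools 2 or 3, E2 pool 2 or SPI+E2 pool 1 (adjusted p = 0.0503 to 0.125).

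Most antiviral effectors showed no call against CAS. Isg15, a ubiquitin-like protein, differed by 0.011, -0.042 and 0.15 with SPI, E2 and SPI+E2. Mx1, a GTPase against RNA viruses, differed by 0.066, 0.14 and 0.017, and the 2 probe sets of Mx2 lay between -0.14 and 0.094. All groups overlapped in Isg15 and Mx1. The guanylate-binding proteins Gbp2, Gbp4 and Gbp7 lay between -0.15 and 0.14. None of the 6 probe sets of Mx and Gbp genes passed limma's unadjusted p under 0.05 either. Of the 3 genes of the Oas family, known for the activator of an antiviral RNase, none was called. At that unadjusted p 1 was lower with SPI+E2, as were 3453 of all 31042 probe sets. Ifit2, Ifit3, Ifitm1, Ifitm2, Ifitm3, Usp18, Ifi35 and Ifi44 were not called against CAS.

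**Figure D4:**
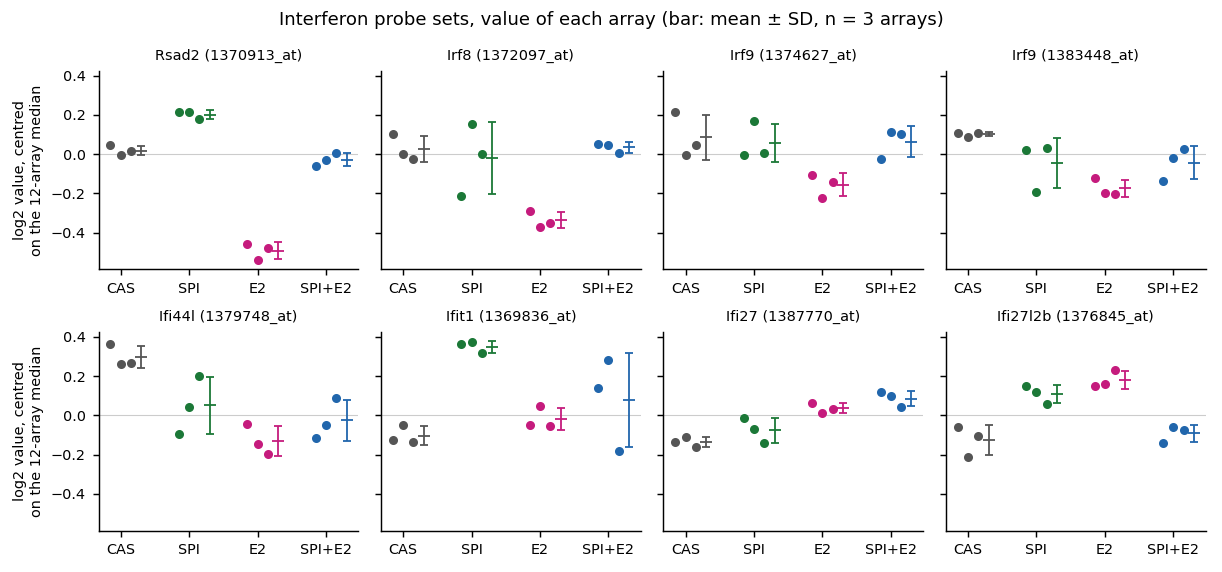
Centred log2 value (y axis) of each array for 8 interferon probe sets in CAS, SPI, E2 and SPI+E2; points are arrays and bars the mean ± SD of 3 arrays. Rsad2, Irf8 and both Irf9 probe sets have their lowest mean in E2, Ifit1 is highest in SPI, and Ifi44l is highest in CAS.

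SPI and E2 were then set against each other. Of the MHC probe sets 8 were higher in SPI and 3 lower, and of the interferon probe sets 7 were higher, where 7.98% of all probe sets were higher and 8.75% lower. In either direction these were 26.8% of the MHC and 18.4% of the interferon probe sets, beside 16.7% of all. Rsad2 was 0.69 higher in SPI (SE 0.0448, adjusted p = 3.98e-06), Ifit1 0.37 (SE 0.094, adjusted p = 0.0201), Irf8 0.32 (SE 0.0791, adjusted p = 0.0176) and Tap1 0.35 in 1388149_at (SE 0.0656, adjusted p = 0.00345). Stat2, Ifi30 and Irf3 were higher by 0.21, 0.20 and 0.16, with adjusted p = 0.0394, 0.049 and 0.0304. Ifitm1, a membrane protein that hinders virus entry and is named after its values were seen, was higher by 0.18 (SE 0.0425, adjusted p = 0.0118), and its SPI arrays were all above its E2 arrays. Ciita was higher by 0.38 in 1379381_at (SE 0.0975, adjusted p = 0.0204), but differed by 0.090 in 1369214_a_at and was not called there (adjusted p = 0.353). Psmb8 was higher by 0.24 (SE 0.0553, adjusted p = 0.012) and RT1-CE12 by 0.35 (SE 0.0574, adjusted p = 0.00159). RT1-Bb went the other way in 1371033_at, lower in SPI by 0.69 (SE 0.0572, adjusted p = 2e-05). So did RT1-Db1 in 1370382_at, by 0.35 (SE 0.0709, adjusted p = 0.00537). The other probe set of each gene was instead higher in SPI and not called. The differences were 0.16 in RT1-Bb 1371065_at (adjusted p = 0.2255) and 0.060 in RT1-Db1 1370383_s_at (adjusted p = 0.4455). RT1-S3 differed by -0.14 to 0.087 and was not called.

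The count of interferon calls between SPI and E2 fell to 4 without SPI pool 1, to 3 without E2 pool 1 or 2 and to 2 without E2 pool 3, and that of MHC calls to 7 without E2 pool 3. The calls were lost for Ifit1 without SPI pools 1 or 2 or E2 pools 1 or 3 (adjusted p = 0.0524 to 0.0687), Irf8 without SPI pool 2 or E2 pools 2 or 3 (adjusted p = 0.0563 to 0.057), Stat2 without any CAS pool, SPI pools 1 or 2, any E2 pool or SPI+E2 pool 3 (adjusted p = 0.0503 to 0.122), Ifi30 without any CAS pool, SPI pools 1 or 3, any E2 pool or any SPI+E2 pool (adjusted p = 0.0611 to 0.144), Irf3 without SPI pools 2 or 3 or any E2 pool (adjusted p = 0.0579 to 0.101), Ciita without SPI pool 2 or E2 pools 2 or 3 (adjusted p = 0.0685 to 0.0745) and Psmb8 without E2 pools 1 or 3 (adjusted p = 0.05 to 0.0544).

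Adding E2 on the SPI diet moved 1 MHC probe set, RT1-Bb in 1371033_at, higher by 0.63 (SE 0.0572, adjusted p = 2.36e-05), and 3 interferon probe sets, all lower, where 11.4% of all probe sets were called. These were 2.44% of the MHC and 7.89% of the interferon probe sets, both below that share. The 3 interferon probe sets were Ifitm10 (-0.41), Rsad2 (-0.23) and Ifi27l2b (-0.20). The MHC count was 2 without CAS pool 2, SPI pool 1 or SPI pool 3. Adding SPI under E2 moved 10 MHC probe sets, all higher, and 4 interferon probe sets higher and 1 lower, where 10.5% were called. These were 24.4% of the MHC and 13.2% of the interferon probe sets, the latter near the share of all. Among the probe sets moved were RT1-DMb (0.41), RT1-CE12 (0.31) and Tap1 (0.34 in 1388149_at), and of the interferon genes Rsad2 (0.46) and Irf8 (0.37). The MHC count was 5 without E2 pool 3 and 6 without SPI+E2 pool 1 or 2.

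The interaction asks whether E2 acted differently on the 2 diets, as the E2 difference on SPI minus that on casein. It was called for 8 MHC probe sets, all above 0, and for 4 interferon probe sets, 2 above and 2 below, where 9.92% of all were called. These were 19.5% of the MHC and 10.5% of the interferon probe sets, the latter near the share of all. For RT1-S3 in 1388213_a_at the E2 difference was -0.49 on casein and 0.16 on SPI, an interaction of 0.65 (SE 0.0702, adjusted p = 6.89e-05). For Ifi27l2b it was 0.30 and -0.20, an interaction of -0.50 (SE 0.0763, adjusted p = 0.00103). In RT1-S3 the CAS arrays, which enter this term, stood above the 3 other groups. The MHC count was 5 without CAS pool 2, E2 pool 2 or E2 pool 3, and the interferon count 2 without CAS pool 2, CAS pool 3, E2 pool 1, E2 pool 2 or SPI+E2 pool 1. Over all 4 groups an F test called 22 MHC and 11 interferon probe sets, or 53.7% and 28.9%, where 25.2% of all probe sets were called. The interferon share was close to that of all probe sets, and the interferon count was 7 without E2 pool 2.

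Other genes of both pathways were counted without the 57 genes above. Over all probe sets the shares called were 17.3%, 9.35% and 8.48% with SPI, E2 and SPI+E2. Of 25 probe sets of interferon ligands, receptors, kinases and inhibitors of the signal 1 was higher with SPI, 1 lower with E2 and 1 lower with SPI+E2, or 4% each time, below those shares. Of 52 probe sets of other interferon-stimulated genes 4 were higher and 7 lower with SPI, 9 lower with E2, and 2 higher and 2 lower with SPI+E2, with medians of -0.034, -0.11 and -0.0069. Their shares called were 21.2%, 17.3% and 7.69%, above the share of all probe sets with SPI and E2 and below it with SPI+E2. Of 42 probe sets of other antigen processing genes 1 was higher and 5 lower with SPI, 1 higher and 3 lower with E2, and 1 lower with SPI+E2, shares of 14.3%, 9.52% and 2.38% that were below or near those of all probe sets. A few of them bear on the members and were chosen after their values were seen. Cmpk2, read next to Rsad2 and induced with it, had its probe set 1383424_at 0.19 higher with SPI and 0.35 lower with E2 (adjusted p = 0.0202 and 0.0007), as Rsad2 did, while 1393044_at differed by -0.21 and -0.35 (adjusted p = 0.136 and 0.0305). Nlrc5, the transactivator of class I genes, was lower with SPI by 0.35 and with E2 by 0.27 (adjusted p = 0.00435 and 0.0262), and differed by -0.20 with SPI+E2 (adjusted p = 0.104). Bst2, which tethers budding viruses, was lower in all 3, by 0.31 to 0.32.

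Markers of cells that carry class II or interferon genes were read beside these results. B cell markers, 17 probe sets, had 6 higher with SPI, 8 lower with E2 and 4 lower with SPI+E2, and their mean per array was 0.034 to 0.13 in the CAS pools, 0.18 to 0.21 in the SPI pools, -0.25 to -0.19 in the E2 pools and -0.079 to -0.072 in the SPI+E2 pools. They were thus high in SPI and low in E2, as Rsad2 was, and below CAS in SPI+E2, where the class II median was highest. Their shares called were 35.3%, 47.1% and 23.5% with SPI, E2 and SPI+E2. Macrophage markers, 16 probe sets, had 1 lower with SPI, 1 lower with E2 and 1 higher with SPI+E2 (Cd68 by 0.46), which was 6.25% each time and below the shares of all probe sets, with means of -0.0079 to 0.029 in the CAS pools, -0.057 to -0.010 in the SPI pools, -0.044 to -0.034 in the E2 pools and 0.052 to 0.077 in the SPI+E2 pools. Dendritic cell markers, 13 probe sets, had 1 lower with SPI, 1 each way with E2 and 2 higher with SPI+E2, or 7.69%, 15.4% and 15.4%, with means of -0.014 to 0.0043 in the CAS pools, -0.025 to 0.0069 in the SPI pools, -0.063 to -0.029 in the E2 pools and 0.010 to 0.046 in the SPI+E2 pools. The means of both lists were highest in SPI+E2 by small margins, with few of their probe sets called, and the class II median was -0.10 to -0.028 in the CAS pools, -0.026 to 0.042 in the SPI pools, -0.10 to -0.013 in the E2 pools and 0.083 to 0.16 in the SPI+E2 pools. Their part in the class II and Rsad2 results was not tested, and centred values do not show which markers are near background.

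Class I was highest in CAS, with medians of 0.035 to 0.096 in the CAS pools, -0.047 to -0.025 in the SPI pools, -0.018 to -0.00099 in the E2 pools and -0.015 to 0.030 in the SPI+E2 pools, and so were erythroid markers, with means of 0.37 to 0.39 in the CAS pools, 0.032 to 0.045 in the SPI pools, -0.27 to -0.26 in the E2 pools and -0.051 to 0.0026 in the SPI+E2 pools; 11, 14 and 12 of their 16 probe sets were lower with SPI, E2 and SPI+E2. Neuron markers were lowest in CAS: 17, 17 and 9 of 21 neuron probe sets were higher with SPI, E2 and SPI+E2, and 11, 7 and 1 of 14 Schwann cell probe sets, with 4 lower in SPI+E2. Neutrophil markers, 9 probe sets, had 3 higher with SPI, 2 lower with E2 and 4 higher with SPI+E2 (33.3%, 22.2% and 44.4%). Their mean was -0.072 to -0.028 in the CAS pools, 0.037 to 0.074 in the SPI pools and -0.22 to -0.17 in the E2 pools. They were thus above CAS in SPI and below it in E2, as Rsad2 and the B cell markers were. In the SPI+E2 pools the neutrophil mean was highest, at 0.24 to 0.26. Plasma cell markers had 2 of 9 lower with E2 and 2 higher and 1 lower with SPI+E2, T cell markers 2 of 19 lower with E2 and 1 each way with SPI+E2, and NK cell markers 2 of 11 lower with E2 and 1 higher with SPI+E2. The shares called with SPI, E2 and SPI+E2 were 0%, 10.5% and 10.5% for T cell markers, and 0%, 18.2% and 9.09% for NK cell markers. For endothelial markers they were 20%, 10% and 20%, beside 17.3%, 9.35% and 8.48% of all probe sets. Osteoblast markers had 3 of 11 lower with SPI and 2 with SPI+E2, and endothelial markers 2 of 10 lower with SPI, 1 lower with E2 and 2 higher with SPI+E2. The part of all these markers in the class I, class II and interferon results was not tested.

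**Figure D5:**
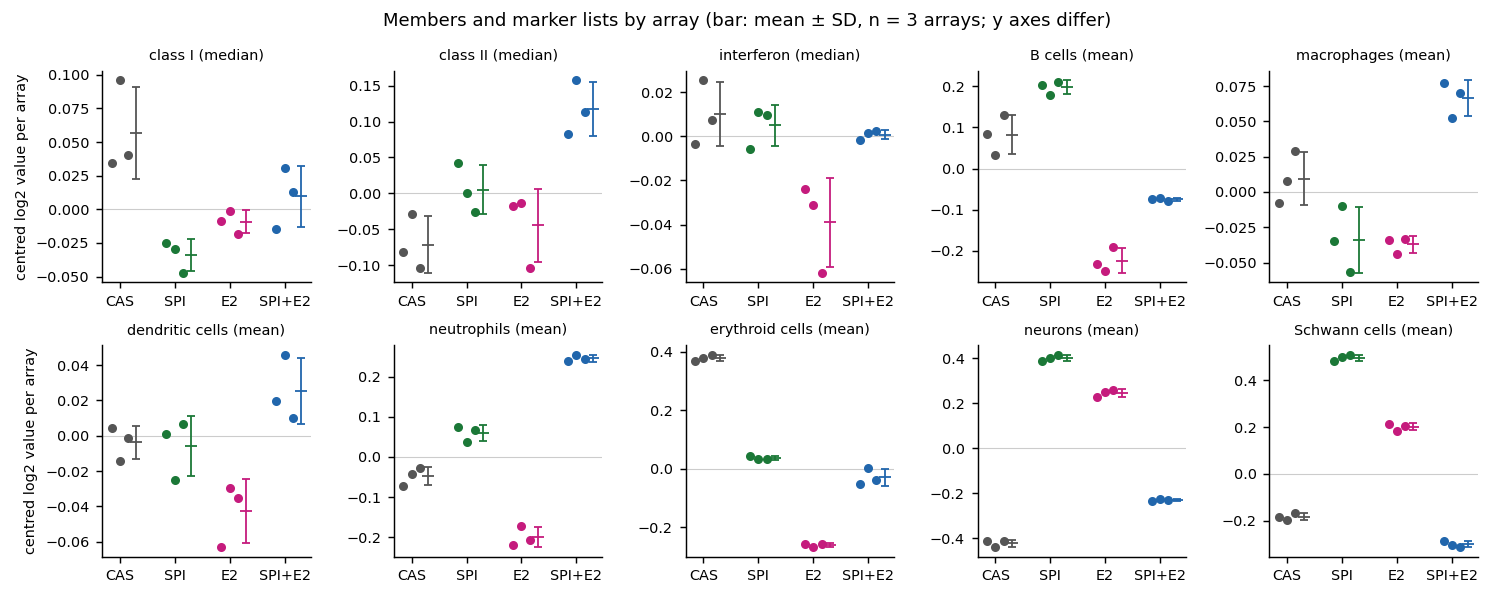
Median centred log2 value of class I, class II and interferon probe sets and mean of 7 marker lists (y axes, which differ in range) in each array of CAS, SPI, E2 and SPI+E2; points are arrays and bars the mean ± SD of 3 arrays. Class I and erythroid markers are highest in CAS, class II, macrophage, dendritic cell and neutrophil values are highest in SPI+E2, and the interferon median and B cell markers are lowest in E2.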

How the data were processed

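RNA of right tibia was hybridised to Affymetrix rat arrays, 3 pools in each of 4 groups taken from the labels. GCOS and RMA stand in the submitters' processing notes without a version. By the study's methods the authors took RMA values as log2 and normalised them in GeneSpring, by chip and by gene, and the result was deposited; the log base comes from the methods. The 12 values of each probe set have a median of 0, so signal over background, and with it the depth of each value, is unknown, and precision is limited by how many arrays there are. Of 31099 probe sets 57 controls were left out. Of the 31042 tested, 436 had several symbols, 7 of them with a matching one and not used as members, and 9780 had none. The gene numbers of 78 of the 79 member probe sets were in the gene table of GRCr8, with no symbol changed. All 12 columns of the value table were used.

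A model over the 4 groups, without the pool number, was fitted with limma 3.58.1 (R 4.3.3, statmod 1.5.0; 8 residual degrees of freedom) and its p-values were adjusted over the 31042 probe sets together by Benjamini-Hochberg. The fit was tested on simulated data. Pool numbers were checked as pairs, by the correlation of deviations from the group means. Over 18 pairs of arrays with the same number it ran from -0.0741 to 0.244, with a median of 0.0439. Over 36 pairs with other numbers it ran from -0.231 to 0.202, with a median of -0.0149. The ranges overlapped, and the numbers were not used as pairs. Pairs among the pool 3 arrays were all above 0, at 0.0573 to 0.244, so a part shared across groups is not excluded. Alternatives were a replicate block, fits of 2 groups, quantile normalisation, median centring, another variance prior, unmoderated variances, array weights, a mean per gene, leaving out shared-probe names, other thresholds and leaving out each array.

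Members and gene lists were chosen with earlier results of these data known. Named with values were, for each treatment against CAS, the 6 MHC and 6 interferon probe sets called with the largest differences, the 5 of each for SPI against E2 and for the interaction, and fixed examples of each role; RT1-Da, RT1-DMb, RT1-T24-4, RT1-CE10 and Ifitm1 were added after their values were seen, as were the other members given only by a count or range. Ifitm5 was not analysed here. Promoter windows are from RefSeq, for 46 of the 57 genes.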

Additional observations from a re-analysis of the deposited data

Results flagged for a closer look

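The effect of E2 differed between the diets, by the interaction in the limma fit, in 12 member probe sets. That was 15.2% of the members, 19.5% of the MHC and 10.5% of the interferon probe sets, where 9.92% of all were called. The interferon share was thus near that of all probe sets. The interaction is the log2 difference of SPI+E2 from SPI minus that of E2 from CAS. In class I it was 0.65 for RT1-S3 in 1388213_a_at (adjusted p = 6.89e-05), where E2 differed by -0.49 on casein and 0.16 on SPI. In the other RT1-S3 probe sets it was 0.49 in 1371123_x_at (adjusted p = 0.00341), 0.45 in 1388212_a_at (adjusted p = 0.0174) and 0.37 in 1388164_at (adjusted p = 0.0316). In every RT1-S3 probe set the CAS arrays, which enter this term, stood above all other arrays. RT1-T24-3 had 0.43 (adjusted p = 0.0109), from -0.26 to 0.18, and RT1-T24-4 had 0.26 (adjusted p = 0.0257), from -0.33 to -0.071.

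In class II it was 0.47 for RT1-Ba in 1377334_at (adjusted p = 0.00538), from -0.42 on casein to 0.047 on SPI. The other probe sets of RT1-Ba were not called (adjusted p = 0.3052 to 0.9915). Their interactions were -0.15 in 1370822_at, 0.087 in 1381593_x_at and 0.0067 in 1392334_at. For RT1-DMb the interaction was 0.29 (adjusted p = 0.0332), from -0.16 to 0.13. Among interferon genes it was 0.42 for Irf8 (adjusted p = 0.0358), from -0.36 to 0.054, and 0.28 for Rsad2 (adjusted p = 0.0148), from -0.51 to -0.23. For Ifi27l2b it was -0.50 (adjusted p = 0.00103), from 0.30 to -0.20, and for Ifitm10 -0.49 (adjusted p = 0.0247), from 0.082 to -0.41. Each value rests on 3 arrays a group. Leaving out an array ended the call for RT1-S3 1388164_at without CAS pools 2 or 3, SPI pools 1 or 2, any E2 pool or SPI+E2 pools 2 or 3 (adjusted p = 0.0527 to 0.0798), for RT1-T24-4 without CAS pools 1 or 2, E2 pools 2 or 3 or SPI+E2 pools 1 or 3 (adjusted p = 0.059 to 0.066) and for RT1-DMb without any CAS pool, SPI pools 2 or 3, E2 pools 2 or 3 or SPI+E2 pools 1 or 2 (adjusted p = 0.0575 to 0.0844). Among interferon genes it ended that of Irf8 without any CAS pool, SPI pool 3, any E2 pool or any SPI+E2 pool (adjusted p = 0.055 to 0.092) and that of Ifitm10 without CAS pools 2 or 3, E2 pools 1 or 2 or SPI+E2 pools 1 or 2 (adjusted p = 0.0527 to 0.0667).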

How the results depend on the processing

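Counts below are of MHC or interferon probe sets called, and medians are of their log2 differences. Array median centring and the trend and robust prior moved no count by over 1.5 times and no median by over the spread between arrays. Quantile normalisation gave MHC medians of 0.036 (SPI+E2), 0.024 (SPI against E2) and 0.11 (interaction), interferon medians of -0.038 (SPI) and -0.054 (SPI+E2), 2 MHC calls for SPI+E2 against SPI, and 3 interferon calls for SPI and 3 for SPI against E2. Unmoderated variances gave 4 MHC and 5 interferon calls for SPI+E2 against SPI and 2 interferon calls for the interaction. Array weights gave MHC medians of -0.040 (SPI), -0.051 (E2) and 0.056 (interaction), an interferon median of -0.0043 (SPI) and 2 MHC calls for SPI+E2 against SPI. A fit of 2 groups gave 7 MHC and 1 interferon calls for SPI, and 2 interferon calls for SPI against E2 and 1 for SPI+E2 against SPI. A mean per gene, over 25 and 32 genes, gave 7, 7 and 9 MHC calls for SPI, E2 and SPI+E2, 3 for SPI+E2 against SPI and 4 for the interaction, and MHC medians of -0.051 (E2), 0.11 (SPI+E2), 0.026 (SPI against E2) and 0.13 (SPI+E2 against E2). For interferon it gave 8 calls for SPI, 5 for SPI+E2 against SPI and 7 for the interaction, and medians of -0.051 (E2) and 0.042 (interaction). It turned RT1-Ba 1370822_at with E2 to -0.051 (adjusted p = 0.697), since it averages the opposed probe sets of that gene.

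Without shared-probe names there were 7, 7 and 8 MHC calls for SPI, E2 and SPI+E2, 7 for SPI against E2, 6 for SPI+E2 against E2, 4 for the interaction and 14 in the F test, with MHC medians of -0.000271 (SPI), 0.067 (SPI+E2) and 0.10 (SPI+E2 against E2) and an interferon median of 0.038 (SPI against E2). This leaves fewer MHC probe sets. At an unadjusted p there were 17 MHC calls for E2, 10 for SPI+E2 against SPI and 15 for the interaction. The interferon calls were then 11, 12 and 9 for SPI, E2 and SPI+E2, and 14 for SPI against E2. They were 9 and 11 for SPI+E2 against SPI and E2, and 10 for the interaction. The calls over all 31042 probe sets rose as well. With SPI 4482 were higher and 4946 lower, with E2 3160 and 3155, and with SPI+E2 3831 and 3453. For SPI against E2 there were 4898 and 4639, and for the interaction 3673 and 3071. For SPI+E2 against SPI there were 4049 and 3568, and against E2 4266 and 3646. With 1.2-fold also required there were 7 MHC and 2 interferon calls for SPI, and 3 interferon calls for SPI against E2 and 1 for SPI+E2 against SPI. Apart from what the construction of an alternative shows, the cause was not tested.

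Leaving out each array gave MHC counts of 8 to 14 (SPI), 8 to 13 (E2), 10 to 15 (SPI+E2), 7 to 13 (SPI against E2), 1 to 2 and 5 to 11 (SPI+E2 against SPI and E2), 5 to 9 (interaction) and 18 to 24 (F test). MHC medians ran from -0.042 to 0.023 (SPI), -0.085 to -0.041 (E2), 0.026 to 0.083 (SPI+E2), 0.026 to 0.056 (SPI against E2), 0.020 to 0.060 and 0.058 to 0.12 (SPI+E2 against SPI and E2), and 0.068 to 0.14 (interaction). Interferon counts were 2 to 5 (SPI), 3 to 6 (E2), 0 to 4 (SPI+E2), 2 to 7 (SPI against E2), 2 to 3 and 4 to 5 (SPI+E2 against SPI and E2), 2 to 5 (interaction) and 7 to 11 (F test). Their medians ran from -0.019 to 0.0021 (SPI), -0.11 to -0.042 (E2), -0.045 to -0.023 (SPI+E2), 0.0037 to 0.057 (SPI against E2), -0.019 to 0.0029 and 0.053 to 0.078 (SPI+E2 against SPI and E2), and 0.045 to 0.091 (interaction).

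The pool numbers were not used as pairs, and the replicate block gave 3 interferon calls for SPI in place of 5. With 3 arrays a group and centred values, signal near background cannot be told from signal well above it.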

Other observations

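Over the 12 arrays the probe set 1371033_at of RT1-Bb was most like those of Chac1 (Pearson's r = 0.964), Entpd4 (0.957), Igfbp2 (0.95), Eepd1 (0.949) and Nr1d1 (0.945), and none of these 5 is a class II gene. Rsad2 was most like Creg1 (0.983), Cxcr4 (0.981) and Macroh2a1 (0.981) among named probe sets. The arrays share the 4 groups and the centring, and these values are a description over all probe sets with no test.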
